A study of Mus musculus with 101 samples.

Results

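The interferon response genes analysed here are 35 mouse genes that cells switch on after exposure to interferons. They were chosen by name, and all 35 were found, by Entrez ID, among the 24475 gene IDs of both deposited tables. The tables hold messenger RNA sequencing of 101 fat libraries from male C57BL/6NTac mice. Fat came from 2 depots, subcutaneous (SC) and epididymal (EPI), and the study covered 2 experiments on Inhbe, the gene for a subunit of activin E made mainly in liver.

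In the first experiment WT mice on chow received an AAV8 vector that drove either GFP or mouse Inhbe (mInhbe) in the liver. Each of these groups gave 10 libraries per depot. In the second, WT mice and Inhbe KO mice ate chow or a high fat diet (HFD). These groups gave 8 libraries each per depot, except KO on chow with 7 in both depots and WT on HFD with 7 in SC fat. Sex and strain were the same throughout, and the labels give no ages. Each library is a piece of whole fat with fat cells, immune cells and vessels in it. In such bulk samples more cells of a type and more RNA per cell cannot be told apart. The labels call the libraries biological replicates but do not say which SC and EPI libraries came from the same mouse.

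Interferons signal through cell surface receptors to the kinases Jak1, Jak2 and Tyk2, which activate transcription factors. Type I interferons bring Stat2 and Irf9 into a complex that binds an interferon-stimulated response element (ISRE) near its target genes. Interferon gamma acts at gamma-activated sites (GAS) and through Irf1, and it induces most of the GTPase members. The products degrade or trap viral RNA (Oas and Ifit proteins), sense it (Ifih1, Dhx58, Zbp1), act on intracellular vacuoles (Irgm, Igtp and Gbp GTPases) or restrain the response (Usp18). In fat, macrophages and fat cells alike express such genes.

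RefSeq lists a promoter for 27 of the 35 members on GRCm38.p6, the assembly that mm10 names. Each window runs from 250 bases before to 50 after a transcription start. The core repeat of an ISRE, read as GAAA, any 2 bases and GAAA, stood on either strand in 18 of the 27 members (66.7%) and in 3.99% of the 27025 genes with a listed promoter. The letters TTCNNNGAA of a GAS, searched on both strands, stood in 8 of the 27 (29.6%) and in 9.55% of all genes. A match is a description of the letters and not evidence of binding. The stretches below are examples from members that hold the repeat, not a ranking by calls. Oas1a and Trim30a were called in 10 and 8 of 19 comparisons. Ifi208 was called in 8 of the 13 in which it was tested, most of them fits over both depots that it entered through SC fat. Oas3, Gbp7 and Isg15, from the oligoadenylate synthetase, guanylate-binding and ubiquitin-like groups, were called in 6, 5 and 4 comparisons. The neighbours Igtp and Irgm2 were called in 3 and 4. Capitals mark this repeat or its reverse complement (TTTC, any 2 bases, TTTC), overlapping matches joined, and each sequence reads 5′ to 3′ on the gene's own strand.
Oas1a: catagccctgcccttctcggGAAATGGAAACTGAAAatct
Ifi208: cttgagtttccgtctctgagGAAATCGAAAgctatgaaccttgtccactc
Trim30a: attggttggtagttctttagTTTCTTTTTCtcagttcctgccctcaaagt
Oas3: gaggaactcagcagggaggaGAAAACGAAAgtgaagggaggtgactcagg
Gbp7: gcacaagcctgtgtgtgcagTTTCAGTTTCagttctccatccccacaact
Isg15: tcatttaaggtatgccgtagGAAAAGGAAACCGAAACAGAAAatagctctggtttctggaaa
Igtp: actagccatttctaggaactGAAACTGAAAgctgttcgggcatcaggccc
Irgm2: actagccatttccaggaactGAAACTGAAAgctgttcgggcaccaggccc

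On GRCm38.p6 the Oas1a stretch lies at chr5:120907526-120907565 and the Oas3 stretch at chr5:120777705-120777754, both on the minus strand. Oasl1 and Oasl2 also lie on chromosome 5, on the plus strand. The Ifi208 stretch lies at chr1:173673587-173673636 (plus strand), that of Trim30a at chr7:104465200-104465249 (minus), that of Gbp7 at chr3:142530263-142530312 (plus) and that of Isg15 at chr4:156200855-156200916 (minus). The Igtp stretch at chr11:58199502-58199551 and the Irgm2 stretch at chr11:58214893-58214942, both on the plus strand, differ at 2 of 50 bases. The repeat in Oas1a ends 5 bases before the listed start, and the Isg15 stretch has overlapping copies. No match to the ISRE letters was in the listed windows of Oasl1, Oasl2, Ifi47, Irf1, Irf7, Irf9, Ifit2, Ifi44 or Xaf1.

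Levels are given in CPM, the estimated counts of a gene per 1e+06 of its library total, and library totals ran from 12970509 to 20170746. Per kilobase of exon over all libraries the most abundant member was Gbp2, a guanylate-binding GTPase, at 30.3 CPM per kb. It was followed by the membrane protein Bst2 at 27.5 and the RNA-binding Ifit3 at 19.2. The least abundant on that scale were Ifi44 at 0.708 and the GTPase Mx2 at 0.724 CPM per kb. Mx1 and Mx2 are annotated in RefSeq as transcribed pseudogenes of this reference strain, and their reads are reported as transcript only. Ifi208, of a family of nucleic acid sensors, had the lowest group mean, 0.255 CPM in WT EPI fat on chow, and was at 0 counts in 1 library, of WT SC fat on chow.

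Counts were not whole numbers, as happens when reads are divided between similar transcripts, in 100% of libraries for Ifit3 and Oas1a, in 99.0% for Trim30a, in 91.1% for Igtp and Irgm2 and in 48.5% for Ifit1. Values of these members, and of Ifi208 (35.6%), hold some uncertainty from near-identical copies.

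All members had their highest group mean in SC fat: 20 with mInhbe, 12 in WT on chow, 2 in WT on HFD and 1 with GFP. The mean of log2(CPM + 1) over the 35 members, used here only to describe libraries, ran from 3.86 to 5.59 in the 10 GFP SC libraries and from 3.48 to 3.81 in the 10 GFP EPI libraries, without overlap. The SD of this mean within a group was 0.76 in WT SC fat on chow, 0.52 and 0.50 in SC fat with GFP and mInhbe, and 0.11 to 0.36 in the other 9 groups.

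**Figure D1:**
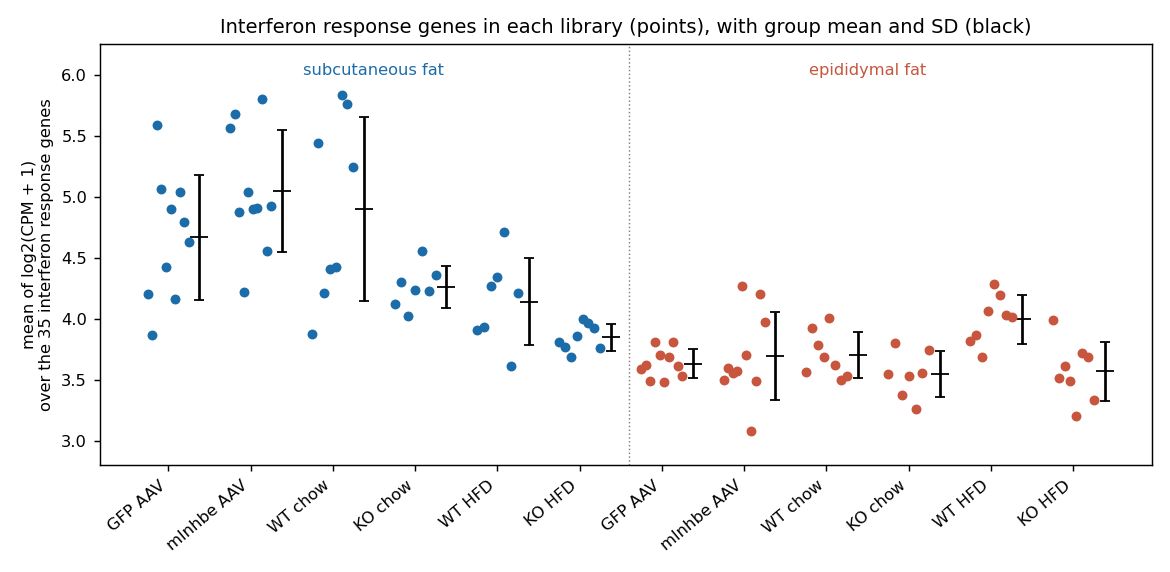
Each point is 1 library and gives the mean of log2(CPM + 1) over the 35 interferon response genes; black marks show the group mean and SD, for 6 groups in each depot. GFP SC libraries span 3.86 to 5.59 and GFP EPI libraries 3.48 to 3.81, and the 8 WT chow SC libraries spread from 3.87 to 5.83.

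Libraries that stand apart bear on several results. WT chow SC libraries 6, 7 and 8 had macrophage markers summing to 1157 to 1775 CPM and fat cell markers to 12488 to 15331 CPM, against 472 to 747 and 20040 to 23084 CPM in libraries 1 to 5. Lymph node B and T cell markers summed to 22.3 CPM in WT chow SC library 1 and to 13.7, 16.2 and 26.1 CPM in WT HFD SC libraries 1, 2 and 4, and to 369.7 to 2103 CPM in all other SC libraries. Liver markers reached 1042 and 4167 CPM in WT HFD EPI libraries 4 and 5. Inhbe itself was at 0 counts in all GFP libraries and at 35 to 846 counts in SC and 4 to 232 in EPI libraries with mInhbe. It was at 0 in nearly all WT and KO fat libraries (at most 5 counts), so it does not check the KO labels. No 2 libraries of the same group were copies of each other (383 pairs), and pairs across groups were not checked.

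On chow most members were lower in EPI than in SC fat. EPI fat of GFP mice had 32 of 35 members lower than SC fat and none higher, where 28.7% of all genes tested were lower and 64.5% differed. The median log2 fold change was -1.18 over the members and 0.06 over all genes. A call here and below is an adjusted p under 0.05 in the edgeR quasi-likelihood test with Benjamini-Hochberg adjustment over all genes tested, and errors of fold changes are SE.

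Ifi208, one of the 32, was at 3.19 to 12.0 CPM (median 8.44) in GFP SC fat and at 0.118 to 0.926 CPM (median 0.350) in GFP EPI fat, where 3 counts are 0.149 to 0.231 CPM. It passed the filter on low counts in the fits of both depots through SC fat and did not pass in EPI fat alone, so it had to differ, and its fold between depots is not given. Leaving it aside, 31 of 34 members were called with GFP. Irf1, the factor that carries part of the interferon gamma response, was at 72.6 to 128 CPM (median 110.4) in SC and 33.2 to 51.3 CPM (median 45.7) in EPI fat (log2 fold change -1.32 ± 0.11, adjusted p = 4.22e-14). Ifi47, an immunity-related GTPase, was at 21.1 to 75.6 CPM (median 35.2) and 7.32 to 10.7 CPM (median 8.19) (log2 fold change -2.28 ± 0.20, adjusted p = 5.35e-13). Zbp1, which senses left-handed nucleic acid helices, was at 10.3 to 53.3 CPM (median 26.6) and 2.52 to 5.33 CPM (median 3.30) (log2 fold change -2.99 ± 0.29, adjusted p = 8.55e-12). For these 3 every SC library was above every EPI library. In total 12 members had ranges apart, where 17.8% of all genes did, and Ifi208, which had to differ, is among the 12. The 3 members not called were Ifih1, Gbp7 and Ifit2, at 0.23, -0.20 and -0.22 on the log2 scale.

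In WT mice on chow 34 of 35 members were lower in EPI than in SC fat, where 18.7% of all genes were lower and 43.1% differed, and Ifih1 alone was not called (log2 fold change -0.31 ± 0.18, adjusted p = 0.175). Ifi208 is among the 34, and here too it passed the filter through SC fat and had to differ. The smallest adjusted p belonged to Usp18, which removes Isg15 from proteins and dampens the receptor. It was at 5.35 to 28.4 CPM (median 12.0) in SC and 2.29 to 5.79 CPM (median 3.33) in EPI fat (log2 fold change -2.05 ± 0.23, adjusted p = 1.07e-10). Zbp1, Irf1 and Ifi47 followed at -2.68, -1.07 and -2.11 on the log2 scale. Usp18 ranges overlapped and those of the other 3 did not.

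On HFD fewer members differed between depots. In WT 13 were lower and 2 higher in EPI fat, where 18.9% of genes were lower, 21.8% higher and 40.8% differed. In KO 12 were lower and 1 higher, where 19.3% were lower, 22.5% higher and 41.8% differed. Ifi208, again carried past the filter by SC fat and at no more than 1.38 CPM in EPI fat, is one of the lower members in both counts. The other lower members with the smallest adjusted p in WT were Gbp3 (-0.87), Usp18 (-1.03) and Irf1 (-0.51), and in KO Gbp5 (-1.16), Trim30a (-0.84) and Gbp3 (-0.75).

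Higher in EPI fat on HFD was Oas1a, which makes oligoadenylates that activate RNase L. In WT it was at 5.10 to 12.4 CPM (median 8.20) in SC and 16.3 to 24.4 CPM (median 17.9) in EPI fat, without overlap (log2 fold change 1.07 ± 0.29, adjusted p = 0.00296). In KO it was at 3.57 to 5.80 CPM (median 4.53) in SC and 6.44 to 11.0 CPM (median 7.57) in EPI fat (log2 fold change 0.74 ± 0.29, adjusted p = 0.0340). Its relative Oasl2 was higher in EPI fat of WT mice (log2 fold change 0.65 ± 0.27, adjusted p = 0.0498) and was not called in KO (log2 fold change 0.42 ± 0.27, adjusted p = 0.195). Irf1, Usp18, Ifi47, Gbp3 and Gbp5 were lower in EPI fat in all 4 depot comparisons. Ifi208 was as well, but it passed the filter through SC fat and so had to differ. Lymph node markers summed to 777 to 1601 CPM in GFP SC and 52.6 to 177 CPM in GFP EPI libraries, and their part in the depot differences was not tested. Ifi208 was at 0 to 19.8 CPM (median 11.0) in WT SC fat on chow and at 0.0618 to 10.3 CPM (median 0.936) on HFD, the groups that hold the 4 SC libraries of little lymph node transcript.

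**Figure D2:**
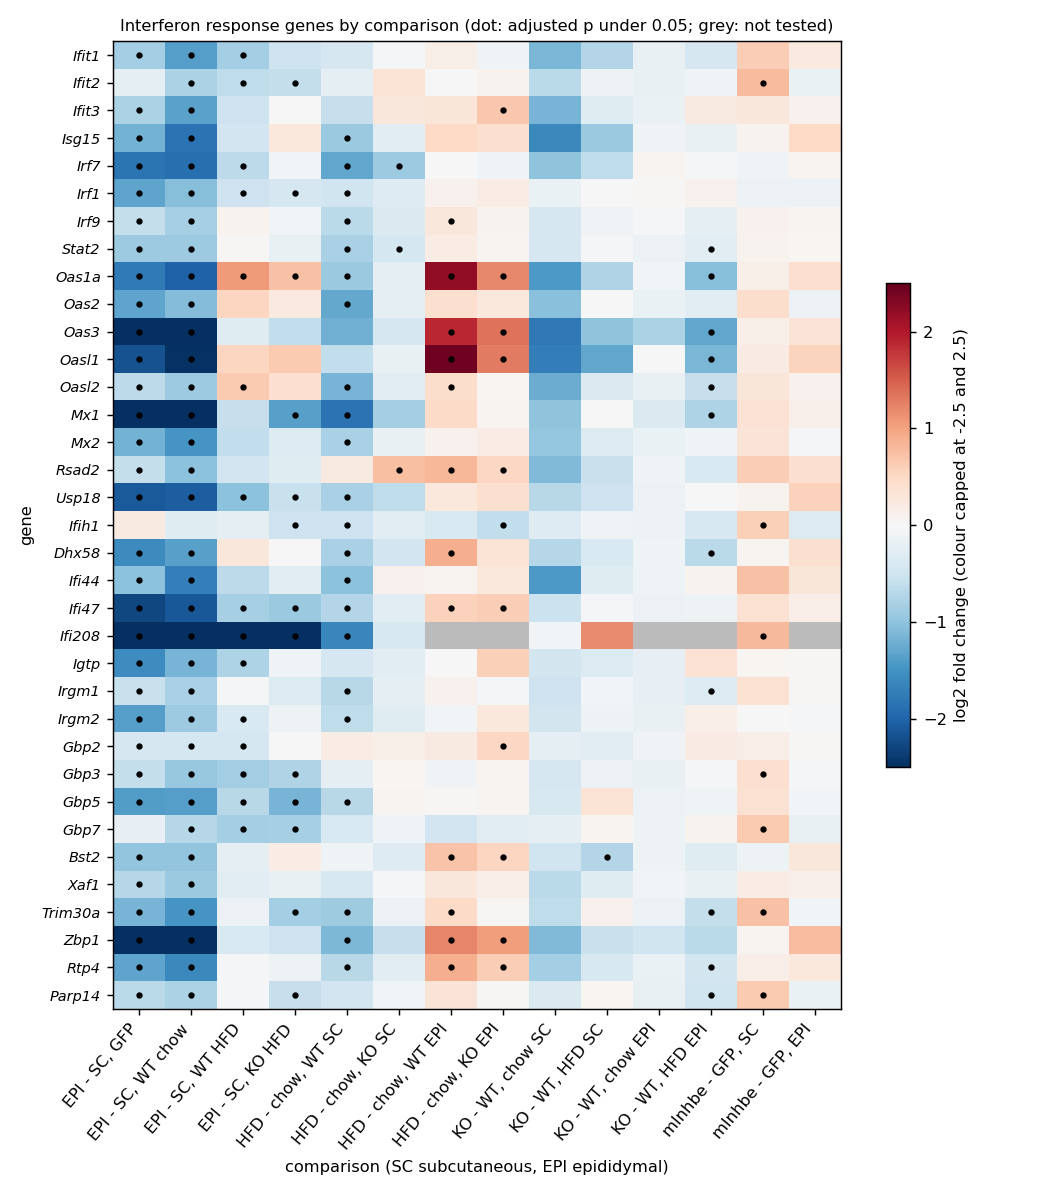
Colour gives the log2 fold change of each of the 35 interferon response genes (rows) in 14 comparisons (columns), capped at -2.5 and 2.5; a dot marks an adjusted p under 0.05 and grey a gene that was not tested. Blue fills the first 2 columns, where 32 and 34 members were lower in EPI fat, and red marks Oas1a, Oas3 and Oasl1 on HFD in EPI fat.

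High fat feeding of WT mice went with falls in SC fat and rises in EPI fat. In SC fat 22 of 35 members fell and none rose, where 21.5% of all genes fell and 44.1% changed. In EPI fat 12 of the 34 members tested rose and none fell, where 28.9% of all genes rose and 54.1% changed, so the members' share of rises was little above that of all genes. Ifi208 was not tested in EPI fat because its counts were too low. The median log2 fold change of the members was -0.69 in SC and 0.29 in EPI fat, against -0.03 and -0.02 over all genes. The members that fell in SC and rose in EPI fat were Irf9, Oas1a, Oasl2, Dhx58, Ifi47, Trim30a, Zbp1 and Rtp4, which is 8 of the 22 and 8 of the 12. The share of all genes that did both was not counted. Of these members Irf9 kept its fall in SC fat without WT chow libraries 6, 7 and 8, and the others were not called. Oas1a then had a positive value in SC fat (0.21, adjusted p = 0.551).

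Among the signalling members in SC fat, Stat2 was at 35.9 to 108 CPM (median 69.3) on chow and 24.3 to 50.6 CPM (median 33.8) on HFD (log2 fold change -0.81 ± 0.15, adjusted p = 9.58e-05). Irf7, the factor that amplifies type I interferon production, was at 22.1 to 143 CPM (median 57.9) and 15.0 to 44.1 CPM (median 22.1) (log2 fold change -1.29 ± 0.28, adjusted p = 4.68e-04). Irf9, the DNA-binding partner of Stat2, was at 23.2 to 71.4 CPM (median 52.3) and 21.7 to 38.4 CPM (median 26.5) (log2 fold change -0.68 ± 0.15, adjusted p = 5.64e-04). All 3 fell, with ranges that overlapped, the lowest chow libraries lying within the HFD range. Among the effectors, the GTPase Irgm2 fell with them (log2 fold change -0.63 ± 0.15, adjusted p = 0.00109). Falls of the other 18 called members ran from -1.86 for Mx1 to -0.51 for Irf1. Rsad2 and Gbp2, at 0.22 and 0.19, had positive values and were not called (adjusted p = 0.478 and 0.390).

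This SC count turned on a few chow libraries. Without WT chow libraries 6, 7 and 8, those with many macrophage and few fat cell transcripts, 4 members were called: Irf9, Stat2 and Irgm2 fell (-0.39, adjusted p = 0.0408, -0.51, adjusted p = 0.00582 and -0.62, adjusted p = 0.00384) and Rsad2 rose (0.67, adjusted p = 0.0243). Adjusting for the lymph node score left 9 members called. Here and below, shares of all genes are given for the main fits only. Counts from fits with libraries left out, a covariate or another method have no such share beside them. Lymph node markers summed to 22.3 to 1437 CPM in WT SC libraries on chow and to 13.7 to 925 CPM on HFD.

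In EPI fat the 3 largest rises were those of Oasl1, Oas1a and Oas3, of the oligoadenylate synthetase family. Oas1a was at 2.63 to 6.61 CPM (median 4.32) on chow and 16.3 to 24.4 CPM (median 17.9) on HFD, a 4.64-fold rise (log2 fold change 2.22 ± 0.21, adjusted p = 1.89e-10). Oasl1, an Oas-like protein known to limit Irf7 production, was at 0.805 to 2.55 CPM (median 1.37) and 5.98 to 9.27 CPM (median 7.86), a 5.40-fold rise (log2 fold change 2.43 ± 0.24, adjusted p = 5.85e-10). Dhx58, a helicase that tunes the cytosolic RNA sensors, was at 4.95 to 7.18 CPM (median 5.62) and 8.05 to 12.7 CPM (median 9.87) (log2 fold change 0.90 ± 0.14, adjusted p = 2.48e-06). In these 3 every HFD library was above every chow library. The interferon-inducible chaperone Rtp4 was at 7.42 to 13.1 CPM (median 8.77) and 12.9 to 23.0 CPM (median 16.2), with a small overlap (log2 fold change 0.92 ± 0.16, adjusted p = 1.20e-05). The other 8 that rose were Oas3 (1.88), Zbp1 (1.23), Rsad2 (0.83), Bst2 (0.72), Ifi47 (0.58), Trim30a (0.48), Oasl2 (0.44) and Irf9 (0.29). The Ifit genes and Isg15, classic targets of type I interferon, were not called (Ifit1 0.15, Ifit2 -0.00, Ifit3 0.30 and Isg15 0.49).

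Macrophage markers moved with this rise. Their sum was 859 to 1459 CPM in WT EPI fat on chow and 3334 to 4292 CPM on HFD, without overlap, and all 8 markers were above 0 in each group. With the mean log2 level of the 8 markers as a covariate no member was called in WT (Oas1a at 0.25, adjusted p = 0.838 and Oasl1 at 0.31, adjusted p = 0.834). The marker sum and the diet separate the same libraries, so in this fit they cannot be told apart.

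The difference between the depots in the response of WT mice to HFD was tested in a fit over both depots. For 23 of 35 members the change on HFD was higher in EPI than in SC fat and for none lower, where 16.1% of all genes were higher and 33.3% differed. Ifi208 is among the 23, having entered this fit through SC fat, and nothing is read from its call. The difference of the log2 changes was 3.09 ± 0.42, adjusted p = 3.83e-08 for Oas1a, 1.65 ± 0.29, adjusted p = 8.71e-06 for Dhx58, 2.99 ± 0.53, adjusted p = 9.47e-06 for Oasl1 and 1.56 ± 0.28, adjusted p = 1.26e-05 for Rtp4. Without WT chow SC libraries 6, 7 and 8 the count was 11 and still held these 4. Gbp2, Ifih1 and Gbp3 had differences of -0.01, 0.08 and 0.09, the 3 nearest to 0.

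**Figure D3:**
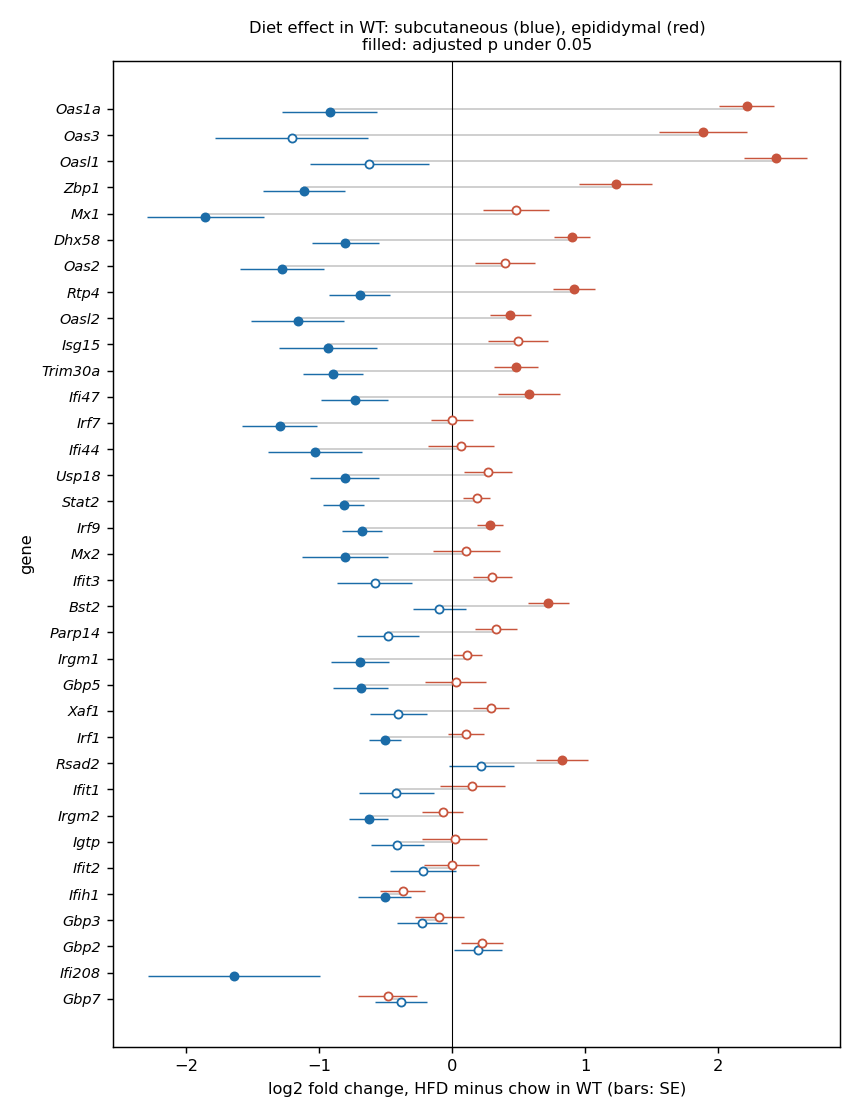
Points give the log2 fold change on HFD against chow in WT mice with SE bars, for SC fat in blue and EPI fat in red, filled where the adjusted p is under 0.05; genes are ordered by the difference between depots. Oas1a is at -0.92 in SC and 2.22 in EPI fat, and Ifi208, not tested in EPI fat, has 1 point. The points are from all libraries, and without WT chow SC libraries 6, 7 and 8 Oas1a was at 0.21 in SC fat.

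In SC fat of KO mice 2 members fell on HFD and 1 rose, where 9.05% of all genes fell, 11.7% rose and 20.7% changed. Irf7 was at 24.0 to 40.2 CPM (median 30.9) on chow and 12.3 to 16.0 CPM (median 14.3) on HFD, without overlap (log2 fold change -0.92 ± 0.28, adjusted p = 0.0179). Stat2 was at 43.6 to 55.1 CPM (median 47.7) and 25.6 to 35.9 CPM (median 29.4), also without overlap (log2 fold change -0.44 ± 0.15, adjusted p = 0.0367). Rsad2, the antiviral radical enzyme viperin, rose, with 10.1 to 17.1 CPM (median 12.1) on chow and 15.5 to 21.3 CPM (median 17.9) on HFD, which overlapped (log2 fold change 0.76 ± 0.25, adjusted p = 0.0295). In total 9 members had ranges apart, where 22.6% of all genes did. When each of the 15 libraries was left out in turn, Stat2 lost its call in 10 cases and Rsad2 in 4, and without KO chow SC library 4 or KO HFD SC library 8 only Irf7 was called.

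In EPI fat of KO mice 10 of 34 members rose on HFD and 1 fell, where 24.7% of all genes rose, 13.9% fell and 38.7% changed, a share of rises close to that of all genes. Oas1a was at 1.92 to 5.93 CPM (median 4.66) on chow and 6.44 to 11.0 CPM (median 7.57) on HFD, without overlap (log2 fold change 1.21 ± 0.21, adjusted p = 4.29e-05). Oasl1 was at 0.702 to 2.31 CPM (median 1.41) and 2.00 to 4.94 CPM (median 2.69), with overlap (log2 fold change 1.30 ± 0.24, adjusted p = 1.09e-04). Ifit3 (log2 fold change 0.68 ± 0.15, adjusted p = 7.98e-04) and Oas3 (log2 fold change 1.36 ± 0.35, adjusted p = 0.00299) rose as well. Ifih1, the sensor of long double-stranded RNA, fell, with 34.9 to 44.4 CPM (median 37.8) on chow and 9.02 to 30.3 CPM (median 22.7) on HFD, without overlap (log2 fold change -0.61 ± 0.18, adjusted p = 0.00683). Of the members that rose, Oas1a, Oas3, Oasl1, Rsad2, Ifi47, Bst2, Zbp1 and Rtp4 rose in WT too, 8 of the 12 in WT and 8 of the 10 in KO. Macrophage markers summed to 634 to 1025 CPM in KO EPI fat on chow and 847 to 1942 CPM on HFD, and no member was called with the macrophage score as a covariate.

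In EPI fat on HFD 11 of 34 members were lower in Inhbe KO than in WT mice and none higher, where 20.2% of all genes were lower and 37.2% differed. The members' median log2 fold change was -0.25 and that of all genes 0.01. WT HFD libraries are the control here and the treated group of the WT diet comparison, so these comparisons share samples.

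Oas1a was at 16.3 to 24.4 CPM (median 17.9) in WT and 6.44 to 11.0 CPM (median 7.57) in KO mice on HFD (log2 fold change -1.07 ± 0.20, adjusted p = 6.62e-05). Oasl1 was at 5.98 to 9.27 CPM (median 7.86) in WT and 2.00 to 4.94 CPM (median 2.69) in KO mice (log2 fold change -1.15 ± 0.23, adjusted p = 1.56e-04). Dhx58 was at 8.05 to 12.7 CPM (median 9.87) in WT and 3.83 to 7.77 CPM (median 5.48) in KO mice (log2 fold change -0.67 ± 0.14, adjusted p = 2.51e-04). Every WT library lay above every KO library in these 3, the only members without overlap, where 14.2% of all genes had none. Oas3, also of the oligoadenylate synthetase family, was at 2.84 to 9.08 CPM (median 4.04) in WT and 0.955 to 2.85 CPM (median 1.64) in KO mice, and only the extremes met (log2 fold change -1.30 ± 0.33, adjusted p = 0.00186). The other 7 lower members were Mx1 (-0.77), Trim30a (-0.59), Oasl2 (-0.58), Parp14 (-0.49), Rtp4 (-0.46), Irgm1 (-0.34) and Stat2 (-0.26).

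**Figure D4:**
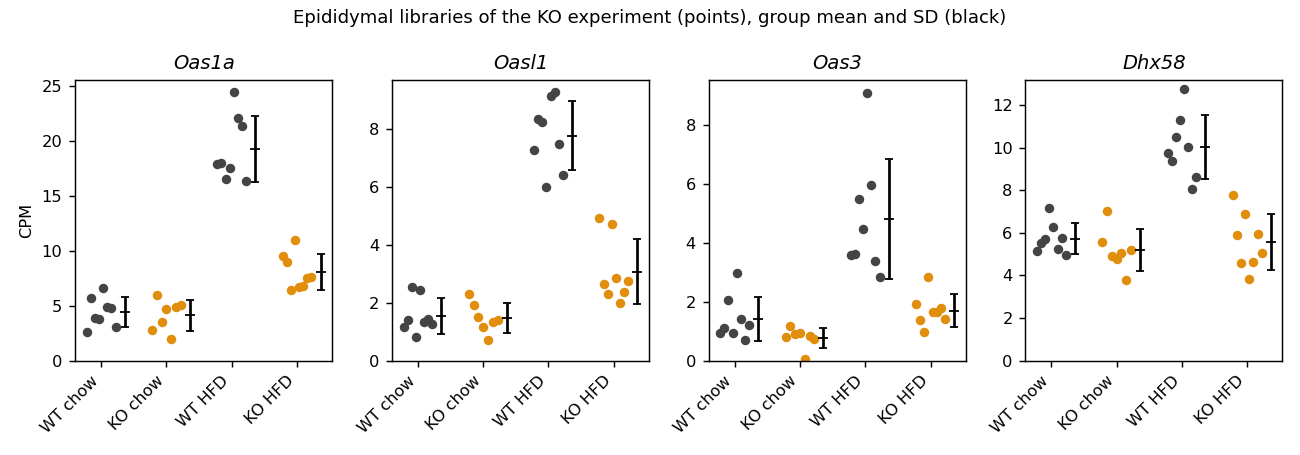
CPM of Oas1a, Oasl1, Oas3 and Dhx58 in each EPI library (points) of the 4 groups of WT and KO mice, with group mean and SD in black. WT HFD libraries, at 16.3 CPM or more of Oas1a, lie above all other groups, and KO HFD libraries lie between 6.44 and 11.0 CPM.

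Macrophage markers again moved with the group: they summed to 3334 to 4292 CPM in WT and 847 to 1942 CPM in KO mice on HFD, without overlap, and 7 of the 8 were called lower. Fat cell markers moved the other way, summing to 12264 to 19493 CPM in WT and 20791 to 27478 CPM in KO mice, without overlap, with 6 of 7 called higher. The marker sums separate the same libraries as the genotype, and the part of the fat cell markers in the result was not tested. With the macrophage score as a covariate 3 members were called, all higher in KO (Gbp2 at 1.18, adjusted p = 0.0164, Ifi47 at 1.39, adjusted p = 0.0412 and Irgm2 at 1.00, adjusted p = 0.0416). In that fit Oas1a was at 0.31, adjusted p = 0.638, so its direction turned, but score and genotype cannot be told apart there. Without WT HFD libraries 4 and 5, which held liver transcript, 7 members were called.

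The effect of the KO differed between diets for 2 members in EPI fat, Oas1a and Oasl1, where 8.7% of all genes had a lower difference and 16.5% differed. The KO effect on HFD minus that on chow was -1.01 ± 0.29, adjusted p = 0.0140 for Oas1a and -1.13 ± 0.33, adjusted p = 0.0169 for Oasl1, in log2 units. On chow their levels had been alike in range, 2.63 to 6.61 CPM (median 4.32) in WT and 1.92 to 5.93 CPM (median 4.66) in KO for Oas1a. Dhx58 came next and was not called (-0.56 ± 0.20, adjusted p = 0.0525). With the macrophage score as a covariate these differences were 0.0810, adjusted p = 0.914 for Oas1a and 0.00420, adjusted p = 0.994 for Oasl1. That fit called 2 other members in the opposite direction, Gbp2 (1.03, adjusted p = 0.0278) and Irgm2 (0.99, adjusted p = 0.0385), and the score sets the WT HFD libraries apart from the other 3 groups. Without KO HFD EPI library 4 the count was 4.

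In SC fat on HFD 1 member was lower in KO mice, where 11.6% of all genes were lower and 18.9% differed. Macrophage markers summed to 694 to 1336 CPM in WT and 424 to 546 CPM in KO mice, without overlap, and 5 of the 8 were called lower. A fit with the macrophage score as a covariate was run here too. The marker sum and the genotype separate the same libraries, so that fit cannot tell them apart. The member called was Bst2, which tethers budding virus particles to the cell. It was at 21.1 to 41.6 CPM (median 26.1) in WT and 14.3 to 17.7 CPM (median 15.2) in KO mice, without overlap (log2 fold change -0.73 ± 0.20, adjusted p = 0.00931). Oasl1 was at 2.61 to 8.22 CPM (median 5.45) and 0.990 to 2.53 CPM (median 1.96), also without overlap, and was not called (log2 fold change -1.29 ± 0.47, adjusted p = 0.0516). In total 5 members had ranges apart, where 9.23% of all genes did. Of the 35 members 28 had negative and 7 positive values, with a median of -0.30. The count rose to 11 after adjusting for the lymph node score, to 7 without WT chow SC libraries 6, 7 and 8 (whose spread enters the shared dispersion), to 4 without the 4 libraries of little lymph node transcript and to 3 without WT HFD library 6. It was 2 without WT HFD library 2, 5 or 7. In those 7 were Oas1a (-0.78, adjusted p = 0.0132) and Oasl1 (-1.33, adjusted p = 0.0170).

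No member's KO effect on HFD differed between the depots at an adjusted p under 0.05, where 14.6% of all genes did. Unadjusted, 2 members had p under 0.05, where 29.1% of all genes did, Trim30a (-0.70 ± 0.29, adjusted p = 0.0889) and Igtp (0.67 ± 0.32, adjusted p = 0.148), and Gbp2 came next (0.45 ± 0.23, adjusted p = 0.183). DESeq2 called 0 members and limma-voom 2. In SC fat no member's KO effect differed between diets, where 2.14% of all genes did. There 5 members had an unadjusted p under 0.05, where 14.6% of all genes did, led by Gbp5 (0.76 ± 0.29, adjusted p = 0.195), Trim30a (0.75 ± 0.32, adjusted p = 0.246) and Oas2 (1.04 ± 0.45, adjusted p = 0.258), DESeq2 called 0 and limma-voom 3.

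On chow no member was called between KO and WT mice in either depot, where 0.253% of all genes were called in SC and 0.658% in EPI fat. In SC fat all 35 values were negative, with a median of -0.68 against -0.02 over all genes. Unadjusted, 28 of the 35 had p under 0.05, all lower in KO, where 3.03% of all genes were lower at that p and 6.68% differed. DESeq2 called 11 members and limma-voom 1, and the share of all genes that each called is not given here. The smallest p belonged to Rsad2, at 15.5 to 58.9 CPM (median 23.1) in WT and 10.1 to 17.1 CPM (median 12.1) in KO mice (log2 fold change -1.10 ± 0.25, adjusted p = 0.0537). Isg15, the ubiquitin-like modifier, was at 3.12 to 30.1 CPM (median 6.64) and 2.09 to 4.80 CPM (median 3.60) (log2 fold change -1.61 ± 0.38, adjusted p = 0.0656). Ifit3 was at 22.9 to 125 CPM (median 39.4) and 20.1 to 34.2 CPM (median 22.9) (log2 fold change -1.17 ± 0.29, adjusted p = 0.0826). In all 3 the groups overlapped, and the WT group was the wide one.

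The 8 WT chow SC libraries spread widely. Their mean of log2(CPM + 1) over the members was 3.87, 5.44, 4.21, 4.41, 4.42, 5.83, 5.76 and 5.24 in libraries 1 to 8. Libraries 2, 6, 7 and 8 were above all KO chow libraries, which spanned 4.02 to 4.56, and library 1 was below them. Libraries 6, 7 and 8 also had the most macrophage marker transcript, while library 2 had 542 CPM of it, within the 472 to 747 CPM of libraries 1 to 5. Library 1 had 22.3 CPM of lymph node markers and the rest 896 to 1437. Without WT chow library 1 the count was 9, without library 3 it was 7, without library 5 it was 5 and without library 4 it was 3. It was 7 without all 4 libraries of little lymph node transcript, 4 after adjusting for the lymph node score and 1 without the 2 SC libraries with liver transcript. Without libraries 6, 7 and 8 it was 0.

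**Figure D5:**
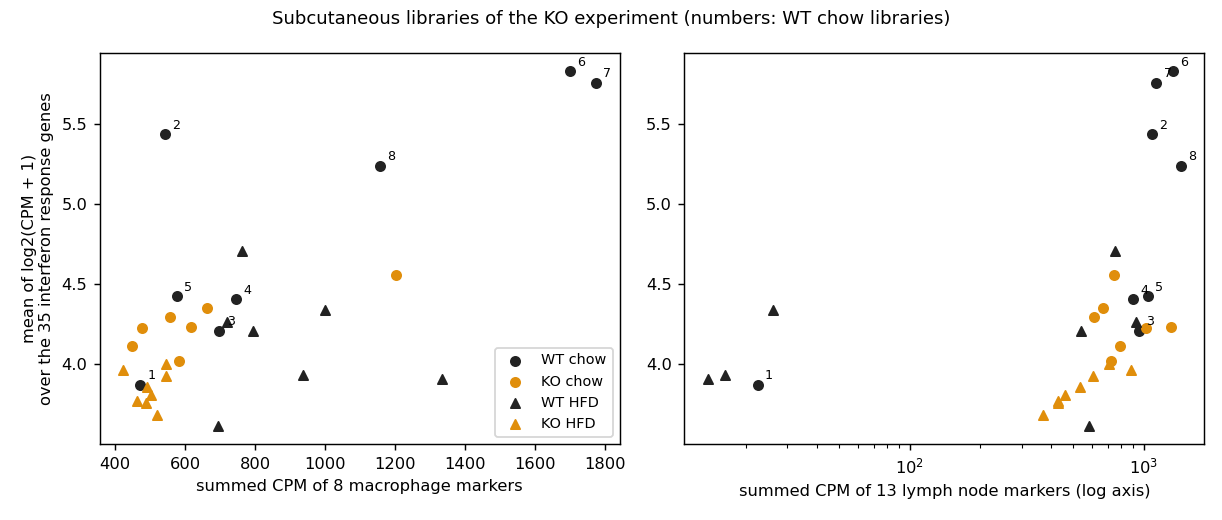
For the SC libraries of the KO experiment, the mean of log2(CPM + 1) over the 35 interferon response genes (y axis) is plotted against the summed CPM of 8 macrophage markers (left) and of 13 lymph node markers on a log axis (right); numbers name the WT chow libraries. WT chow libraries 2, 6, 7 and 8 lie at 5.24 or more, above the other 26 libraries, and 4 WT libraries lie at 26.1 CPM or less of lymph node markers.

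In EPI fat on chow 1 member, Oas3, had an unadjusted p under 0.05, where 6.12% of all genes did (log2 fold change -0.78 ± 0.35, adjusted p = 0.718). Irgm1 (log2 fold change -0.21 ± 0.11, adjusted p = 0.924) and Zbp1 (log2 fold change -0.49 ± 0.29, adjusted p = 0.971) came next. DESeq2 and limma-voom called 0 members.

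In SC fat 7 of 35 members were higher with mInhbe than with GFP and none lower, where 15.8% of all genes were higher and 27.2% differed. The share of members called, 7 of 35, was close to that background. The median log2 fold change was 0.29 over the members and -0.00 over all genes, and 32 of 35 values were positive.

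Ifi208 was at 3.19 to 12.0 CPM (median 8.44) with GFP and 9.54 to 24.0 CPM (median 16.5) with mInhbe (log2 fold change 0.81 ± 0.17, adjusted p = 0.00229). Ifih1 was at 16.8 to 41.0 CPM (median 28.6) and 30.8 to 66.8 CPM (median 43.0) (log2 fold change 0.60 ± 0.15, adjusted p = 0.00694). Parp14, an ADP-ribosyltransferase, was at 44.8 to 162 CPM (median 88.0) and 86.5 to 239 CPM (median 132) (log2 fold change 0.65 ± 0.18, adjusted p = 0.0125). Ranges overlapped in each case. The mInhbe median was above the highest GFP library for Ifi208 and Ifih1 and within the GFP range for Parp14. Gbp7 was at 19.7 to 67.8 CPM (median 48.1) and 42.4 to 118 CPM (median 75.1) (log2 fold change 0.66 ± 0.20, adjusted p = 0.0202). Ifit2 (0.79), Trim30a (0.73) and Gbp3 (0.42) were the other 3. Oas1a, Isg15 and Irf7 were not called here (0.14, 0.09 and -0.09). They fell on HFD in WT SC fat in the main fit, but not with a call when WT chow SC libraries 6, 7 and 8 were left out.

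Ranges of the lymph node and macrophage marker sums lay higher with mInhbe and overlapped those with GFP. Single markers were mixed: 4 of 13 lymph node and 1 of 8 macrophage markers were called higher and none lower. Log2 fold changes were negative for 1 of the 13 and 3 of the 8. Lymph node markers summed to 777 to 1601 CPM with GFP and 1029.5 to 2103 CPM with mInhbe, and macrophage markers to 498 to 944 and 560.3 to 1128 CPM. Fat cell markers moved the other way, to 18621 to 25055 CPM with GFP and 12930.4 to 21820.1 CPM with mInhbe, with 4 of 7 called lower, and their part in the result was not tested. After adjusting for the lymph node score no member was called, and with the macrophage score 1, Ifi208 (0.66, adjusted p = 0.0354). The count was 13 without GFP library 3 and 4 without mInhbe library 1, 2 or 8.

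In EPI fat no member was called between mInhbe and GFP by edgeR, DESeq2 or limma-voom, where 1.16% of all genes were called. Unadjusted, 6 of 34 members had p under 0.05, where 11.2% of all genes did. They were led by Usp18 (log2 fold change 0.57 ± 0.17, adjusted p = 0.142), Zbp1 (log2 fold change 0.77 ± 0.25, adjusted p = 0.189) and Dhx58 (log2 fold change 0.39 ± 0.13, adjusted p = 0.223). The effect of mInhbe was lower in EPI than in SC fat for 5 of 35 members and higher for none, Ifi208 among the 5, where 9.41% of all genes had a lower difference and 13.5% differed. The difference of the log2 changes was -0.97 ± 0.22, adjusted p = 0.0130 for Ifih1, -0.83 ± 0.26, adjusted p = 0.0289 for Parp14, -0.87 ± 0.27, adjusted p = 0.0295 for Gbp7 and -0.97 for Ifit2. No value is read for Ifi208, whose EPI levels lie near 3 counts. Without GFP EPI libraries 7 and 8, which stood apart in epididymis and brown fat markers, 2 members were called.

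Beside the members, 90 other genes of the interferon pathway were listed by role, of which 50 are other interferon-induced genes, and 83 or 84 of them were tested. The ligands Ifnb1, Ifne and Ifnk were at no more than 2 counts in any library, Ifng, the gene of interferon gamma, reached 12 counts and was above 0 in 76 of 101 libraries, and Ifnl2 and Ifnl3 were at 0. None of these 6 ligands was tested. Of the 83 tested in EPI fat 38 rose and 5 fell on HFD in WT mice, where 28.9% of all genes rose and 54.1% changed. In KO against WT mice on HFD 31 were lower and 5 higher, where 20.2% of all genes were lower and 37.2% differed. Macrophage marker sums separated the groups of both EPI comparisons, and pathway counts with the macrophage score were not made. Of the 84 tested in SC fat 37 fell and 5 rose on HFD in WT mice, where 21.5% of all genes fell and 44.1% changed. The member count in this comparison dropped without WT chow SC libraries 6, 7 and 8, and the pathway count without them was not made. With mInhbe 20 of the 84 were higher and 3 lower, where 15.8% of all genes were higher and 27.2% differed. No member kept its call with mInhbe under the lymph node score, and the pathway count with that score was not made. On chow none was called between KO and WT mice in either depot.

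On HFD in WT EPI fat the called pathway genes with the smallest adjusted p were ones that immune cells express. Ptpn6, a phosphatase that restrains Jak signalling, rose (log2 fold change 2.13 ± 0.15, adjusted p = 7.81e-13), as did Irf8 (log2 fold change 2.14 ± 0.16, adjusted p = 1.21e-12) and Irf5 (log2 fold change 2.20 ± 0.18, adjusted p = 6.76e-12), factors of myeloid cells. Il10rb, a receptor chain shared by interferon lambda, rose too (log2 fold change 1.36 ± 0.10, adjusted p = 2.45e-12). In KO against WT mice on HFD Il10rb (-0.95), Irf5 (-1.46), Ptpn6 (-1.26) and the ubiquitin ligase Trim25 (-0.73) were lower, and the KO effect differed between diets for each of these 4 (Il10rb -0.86 ± 0.15, adjusted p = 1.12e-04). Within KO mice Irf8 (1.09), Ptpn6 (1.03), Ifngr2 (0.72) and Ikbke (0.72) rose on HFD.

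In SC fat of WT mice on HFD the called pathway genes with the smallest adjusted p were Nlrc5 (-0.93), which drives class I antigen presentation, the antibody receptor Trim21 (-0.77), the exonuclease Isg20 (-0.71) and Oas1b (-1.12). Their falls were not examined without WT chow SC libraries 6, 7 and 8. In KO mice Trim25 (-0.52), the peptide transporter Tap2 (-0.51) and Isg20 (-0.46) fell and Ifngr2 rose (0.34), among 6 that fell and 1 that rose, where 9.05% of all genes fell and 11.7% rose. KO against WT on HFD gave 13 lower and 1 higher, near the 11.6% of all genes that were lower and under the 18.9% that differed. Lgals3bp (-0.86), the receptor chain Ifnar2 (-0.40) and Stat3 (-0.40) were among the lower, and Nlrc5 (0.51) was the higher. The KO effect of Nlrc5 also differed between diets (0.71 ± 0.17, adjusted p = 0.0228).

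With mInhbe in SC fat the kinases Jak2 (0.64) and Jak1 (0.42) and Pias1, an inhibitor of activated Stats (0.30), were higher and the helicase Znfx1 (-0.33) was lower. The mInhbe effect differed between depots for 13 pathway genes, all lower in EPI fat, where 9.41% of all genes had a lower difference and 13.5% differed. They were led by Jak2 (-0.73), Ifi203 (-1.27), Samd9l (-1.21) and Eif2ak2 (-0.93).

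Between depots 66 pathway genes were lower and 4 higher in EPI fat with GFP, where 28.7% of all genes were lower and 64.5% differed. In WT on chow 63 were lower and none higher, where 18.7% of all genes were lower and 43.1% differed. Ptpn6 (-2.65), Irf8 (-2.85), Sting1 (-1.86) and Tap1 (-2.10) led with GFP, and Nlrc5 (-1.51), Sp100 (-1.62), Irf8 (-2.26) and Samhd1 (-1.15) in WT on chow. On HFD 25 were lower and 15 higher in WT (18.9% and 21.8% of all genes), and 34 lower and 6 higher in KO mice (19.3% and 22.5% of all genes). Il10rb (1.04), Irf5 (1.49) and Trim25 (0.71) were higher and Tgtp1 (-1.52) lower in WT EPI fat, and Ifi209 (-2.78), Sp100 (-1.15), Tgtp1 (-1.45) and Gbp8 (-2.35) were lower in KO EPI fat. The HFD response of WT mice was higher in EPI than in SC fat for 43 pathway genes and lower for none, where 16.1% of all genes were higher and 33.3% differed, led by Il10rb (1.26), Trim25 (1.31), Ikbke (2.12) and Irf5 (2.35). This count, too, was not made without WT chow SC libraries 6, 7 and 8. The KO effect on HFD was lower in EPI than in SC fat for 14 and higher for 3, where 14.6% of all genes differed, with Il10rb (-0.73), Ikbke (-1.24), Ptpn6 (-1.66) and the receptor chain Ifnar1 (-0.63) first among the lower.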

How the data were processed

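The deposited values are estimated counts per Entrez gene ID, made by the authors in 1 table per experiment and not scaled for depth. Of all values 2.94% were not whole within a tolerance of 1e-06. Per the labels' protocols, libraries were made with a KAPA mRNA HyperPrep kit and UMI adapters and read in pairs. Reads were placed on mm10, per the submitters' processing notes. Which aligner and counter made the tables, and whether UMIs were used, is not given in the sources used here.

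The design had allowed for counts or estimated counts, and the latter were rounded. Each depot of an experiment was fitted over all its groups, and depots were compared in a fit over both depots of an experiment. Genes passed filterByExpr by group (minimum count 10, minimum total 15), were scaled by TMM and tested with the robust quasi-likelihood test of edgeR 4.0.16 (R 4.3.3), adjusted by Benjamini-Hochberg over all genes tested. Of the 35 members 35 passed in SC fits and fits of both depots and 34 in EPI fits. SE is the absolute log2 fold change over the square root of F. The test was tried on simulated counts with known changes, the outcome is not given here, and nothing is read from it. The range of library totals puts 3 counts at 0.149 to 0.231 CPM. Replicates are separate labelled samples, and p-values measure the spread between them.

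The members and gene lists were chosen with earlier results of these data known. In each comparison up to 4 called members per direction with the smallest adjusted p were named, or 3 by p where none was called, and up to 4 other pathway genes; members of extreme level were added, and other members given by value were picked after seeing it. Alternatives were RLE size factors, no filter, DESeq2 1.42.0, limma-voom (limma 3.58.1) with quality weights, a replicate block, lymph node, epididymis or macrophage scores as covariates, and left-out libraries; the macrophage score and the left-out sets of libraries were added after seeing the data. Exon lengths came from GENCODE, symbols (24375 IDs), places and promoters from RefSeq. Symbol Tmem173 was read as Sting1. One pathway gene that the rule also named is not reported here. Figures used matplotlib 3.10.9.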

Additional observations from a re-analysis of the deposited data

Results flagged for a closer look

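Within groups of 7 to 10 libraries, the mean over the members and the CPM of the 8 members called in at least 7 comparisons were searched for a library far from the rest of its group by Dixon's criterion. Of 108 sets of values 5 had such a library, where chance gives about 1 in 20. Ifi208 was at 0.926 CPM in GFP EPI library 8, against 0.118 to 0.371 CPM in the other 9, and at 0.682 CPM in mInhbe EPI library 5, against 0.0543 to 0.371 CPM. Oas1a was at 13.1 CPM in mInhbe EPI library 9, against 3.94 to 7.07 CPM. Trim30a was at 73.3 CPM in WT HFD SC library 5, against 31.9 to 41.9 CPM. Rtp4 was at 12.2 CPM in KO chow EPI library 2, against 6.82 to 8.75 CPM.

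Effects that differed between diets or depots by the test of the difference itself (edgeR, adjusted p under 0.05) were found for 2 members between diets in EPI fat: Oas1a (-1.01) and Oasl1 (-1.13), as differences of log2 fold changes. For 5 members the mInhbe effect differed between depots, led by Ifih1 (-0.97), Ifi208 (-1.28), Parp14 (-0.83) and Gbp7 (-0.87). Ifi208 entered that fit through SC fat and lies near 3 counts in EPI fat, so nothing is read from its value. For 23 members the HFD response of WT mice differed between depots, led by Oas1a (3.09), Dhx58 (1.65), Oasl1 (2.99) and Rtp4 (1.56).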

How the results depend on the processing

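The counts below are of members only, without the share of all genes called under the same alternative. Counts of members called in the 4 depot comparisons stayed within 1.5 times under every alternative run. Limma-voom gave 11 for mInhbe in SC fat, 1 for KO on chow in SC, 6 for KO on HFD in SC, 9 for HFD in KO SC, 23 for HFD in WT EPI, and, for the differences of effects, 3 between diets in SC, 6 between diets in EPI and 2 for KO on HFD between depots. DESeq2 gave 11 for KO on chow in SC and 3 for KO on HFD in SC. With the lymph node score the SC counts were 0 for mInhbe, 4 for KO on chow, 11 for KO on HFD and 9 for HFD in WT. With the macrophage score they were 1 for mInhbe and 4 for the difference of KO effects between diets in SC, and in EPI 3 for KO on HFD, 0 for HFD in WT and 0 for HFD in KO. Without the libraries with liver transcript the counts were 1 for KO on chow in SC, 3 for KO on HFD in SC and 7 for KO on HFD in EPI. Without those of little lymph node transcript they were 7 for KO on chow, 4 for KO on HFD and 1 for the KO effect on HFD between depots. Without WT chow SC libraries 6, 7 and 8 they were 7 for KO on HFD in SC, 4 for HFD in WT SC, 1 for the KO effect on HFD between depots and 11 for the HFD response between depots. Without GFP EPI libraries 7 and 8 the mInhbe effect differed between depots for 2. Apart from what each alternative changes by construction, the cause was not tested.

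The labels number the replicates. Same-numbered libraries did not deviate together throughout: in none of 16 pairs of groups did every correlation exceed 0.1, and in no pair of groups did each library correlate best with its own number. Between depots, 4 of 8 libraries did so in WT on chow (median correlation 0.088, against -0.015 for other numbers). With mInhbe 0 of 10 did (median -0.177, against 0.023). This rule cannot exclude that depots share mice, and the main fits over both depots treat libraries as independent. With the replicate number as a block the count was 3 for mInhbe in SC fat (Ifih1, Ifi208 and Parp14) and 2 for its difference between depots, and every other count was within 1.5 times. 

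The macrophage score sets the WT HFD EPI libraries apart from the other EPI groups and in these fits cannot be told apart from diet and genotype. Under it, named members that changed sign were, in KO against WT on HFD in EPI fat, Oas1a (0.31), Oasl1 (0.30), Dhx58 (0.0830) and Oas3 (0.69). On HFD in WT they were Dhx58 (-0.19) and Rtp4 (-0.27). For the difference between diets they were Oas1a (0.0810) and Oasl1 (0.00420).

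Leaving out each library in turn gave ranges of 4 to 13 for mInhbe in SC (13 without GFP SC 3, 4 without mInhbe SC 1, 2 or 8), 0 to 0 in EPI, 0 to 9 for KO on chow in SC (9, 7, 3 and 5 without WT chow SC 1, 3, 4 and 5), 0 to 0 in EPI, 1 to 3 for KO on HFD in SC (3 without WT HFD SC 6, 2 without 2, 5 or 7) and 9 to 14 in EPI. For HFD they were 16 to 23 in WT SC, 10 to 15 in WT EPI, 1 to 4 in KO SC (1 without KO chow SC 4 or KO HFD SC 8) and 9 to 13 in KO EPI. For the difference of KO effects between diets they were 0 to 0 in SC and 2 to 4 in EPI (4 without KO HFD EPI 4). Of 705 values of named members under this, 679 kept direction and side of the threshold, 14 lost the call, 12 gained one and 0 changed sign. It was not run for fits over both depots. Depth limits Ifi208 in EPI fat, where it was at 0.0543 to 1.38 CPM.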
